A study of Mus musculus with 2 samples.

Results

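Condensing spermatids are the haploid germ cells in which the nucleus is packed into the sperm head. Within the testes of 2 mice, 247 of 2552 cells formed the less protamine-rich part of this stage, 103 of 1237 cells in mouse 1 and 144 of 1315 in mouse 2. Both animals were C57Bl/6J Crl males at 8 weeks of age. A part of the testis tissue was dissociated, filtered through a cell strainer and measured with 1 droplet library per animal. There is thus no second condition and no genotype contrast. UMIs, which count captured transcript molecules by their 3' ends, numbered 27450497 in mouse 1 and 30302332 in mouse 2.

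The cells were chosen from their own values. UMIs were scaled to 1000000 per cell (CPM), log2-transformed after adding 1 and standardised for each gene across the cells, and 6 scores, each the mean of 4 stage genes, were compared in every cell. In 495 cells the score of *Prm1*, *Prm2*, *Tnp2* and *Klk1b8* was the highest. Those of them with a share of *Prm1* and *Prm2* below the median of 11.1% of the UMIs are described here as lower-protamine condensing spermatids, and the other 248 as higher-protamine ones. Just inside the limit were cells with 11.1016%, 11.1101% and 11.1135%, and just outside were cells with 11.1386%, 11.1712% and 11.1855%, so the limit falls within a continuous range. Cells with the highest score for *Hemgn*, *2200002J24Rik*, *Tmco5b* and *Pex5l* are called transition spermatids (226 cells), and those with the highest score for *1700029E06Rik*, *4930596D02Rik*, *1700001P01Rik* and *Asb15* mid round spermatids (436 cells). Because the same cells and the same contrasts were used for the choice, all differences between these classes are descriptions without a test. Values are given for mouse 1 first and mouse 2 second, and the difference between both animals is their spread (n = 2 mice).

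In spermiogenesis, histones are first replaced by transition proteins and these by protamines, small arginine-rich proteins that compact the DNA. Transcription stops as the chromatin closes, and many messenger RNAs are stored in RNA-protein particles and translated later. In parallel, the acrosome, the perinuclear theca and the tail with its outer dense fibres and fibrous sheath are assembled, and most of the cytoplasm is finally shed.

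The label was set beside further markers. Their lists were written with earlier results of these data known, so they are no independent check. All 15 genes of a list of elongating and condensing spermatid markers had their highest level in 1 of the 2 condensing classes in both mice. Together they took 50868 and 57575 CPM in the lower-protamine cells, 31805 and 31843 CPM in transition spermatids and 67490 and 72391 CPM in higher-protamine cells. In UMIs per cell, their median log2 ratio of lower-protamine cells over transition spermatids was -0.10 and -0.04. The 12 round spermatid markers together took 729.6 and 572.8 CPM in the lower-protamine cells, against 3328 and 3399 CPM in transition spermatids. By the scores used for the choice, which are no check of the label, the transition genes came second in 205 of the 247 cells (83.0%), as against 160 of 248 higher-protamine cells. In 31 cells the 2 highest scores were less than 0.25 apart.

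Of the 247 cells, 5 went against the label. Their protamine share lay between 0.265% and 0.440%, whereas the next cell had 3.18%. In 4 of them, 3 from mouse 2 and 1 from mouse 1, the 9 Leydig cell markers took between 34078 and 44524 CPM and mitochondrial transcripts between 1.39% and 6.16% of the UMIs. All other members had at most 559.7 CPM of these markers. The fifth, from mouse 1, had the pachytene score in second place and 2194 CPM of spermatocyte markers. Through these cells, the Leydig markers summed to 295 and 629.9 CPM in the whole class, with *Fabp3* the most abundant at 87.7 and 304.8 CPM, and none of the 9 was at 0. Without the 5 cells the sum was 57.2 and 31.3 CPM, close to the 54.2 and 32.2 CPM of higher-protamine cells. The results below are given without these cells wherever they decide a value. The other somatic lists were low, with 105 and 128.6 CPM for 15 Sertoli cell markers (most abundant *Clu*, 2 markers at 0), or 77.4 and 61.5 CPM without the 5 cells, and 24.6 and 40.2 CPM for 8 macrophage markers (most abundant *C1qb*, 4 at 0, *Csf1r* at 0.664 and 0.496 CPM). Spermatocyte markers (15 genes) were at 581.4 and 540.5 CPM, against 548.7 and 590.6 CPM in higher-protamine cells, and 12 spermatogonium and 10 peritubular and endothelial markers at 19.3 and 27.3 CPM and at 6.64 and 6.45 CPM. A single cell of mouse 2 held haemoglobin transcripts at 6.33% of its UMIs.

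The mice differed in how their condensing cells fell on either side of the limit. In mouse 1, 37.2% of 277 condensing spermatids were in the lower-protamine class (exact binomial 95% interval 31.5% to 43.2%), in mouse 2 66.1% of 218 (59.4% to 72.3%). The median protamine share of all condensing cells was 12.1% in mouse 1 and 9.71% in mouse 2. As a share of all cells of the animal, the lower-protamine cells made up 8.33% (6.85% to 10.0%) and 11.0% (9.31% to 12.8%). These intervals cover counting error only.

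**Figure D1:**
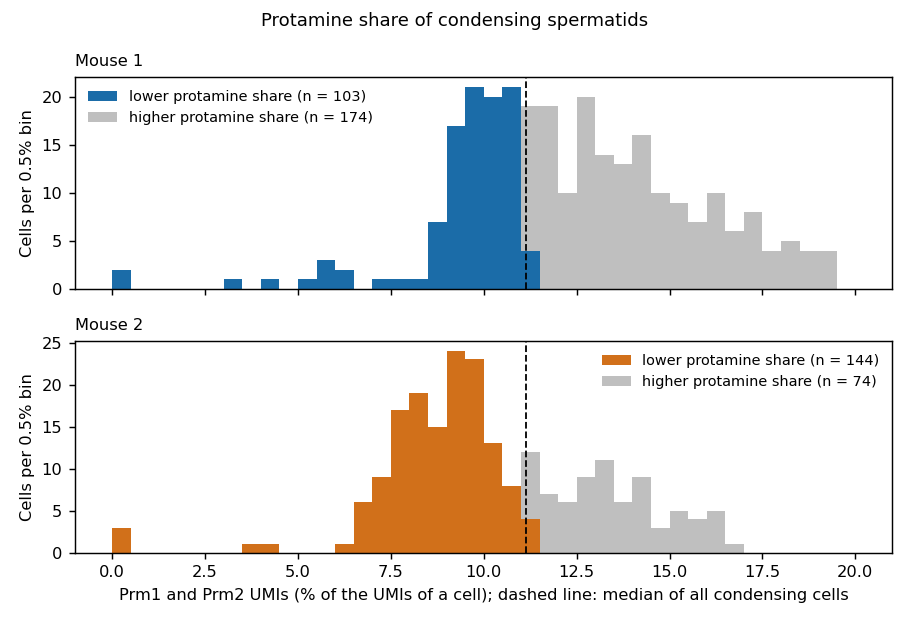
Histogram of the percentage of UMIs on *Prm1* and *Prm2* in each of the 495 condensing spermatids, in bins of 0.5%, with mouse 1 above and mouse 2 below. Coloured bars are lower-protamine and grey bars higher-protamine cells, the dashed line is the median of 11.1%, and the isolated bars at the left are the 5 cells under 0.5%.

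The lower-protamine cells held fewer transcripts than the stage before them. The median was 13226 and 12343 UMIs per cell, against 23359 and 20297 in transition spermatids and 10813 and 12140 in higher-protamine cells. The number of genes found per cell was 2779 and 2482, between 4211 and 4104 in transition spermatids and 2166 and 2169 in higher-protamine cells. After thinning every cell to 5000 UMIs, the same order held in both mice, with 1620 and 1568 genes against 2094 and 2084 before and 1417 and 1331 after, and the differences between the classes exceeded those between the mice. Mitochondrial transcripts were at a median of 0.0191% and 0.0202%, which is close to 0.0214% and 0.0175% in higher-protamine cells.

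Transcripts of the list of protamine and transition protein genes were abundant, and 3 of these 5 genes were used for the choice. *Prm1*, protamine 1, which defines the class, had 68679 and 54716 CPM, compared with 34018 and 27535 CPM in transition and 106125 and 94896 CPM in higher-protamine cells. In mid round spermatids 2972 and 1971 CPM were found, and in pachytene spermatocytes, which should lack it, 1418 and 1054 CPM. *Tnp1*, transition protein 1, was not used for the choice and had 21666 and 19320 CPM, between 11581 and 10492 CPM in transition and 31919 and 29426 CPM in higher-protamine cells. *Prm3*, a gene of the *Prm1* locus, followed the same order with 3885 and 3493 CPM between 2649 and 2160 CPM and 5399 and 4967 CPM. For all 3 genes the 3 classes did not overlap between the mice, but *Prm1* was used for the choice. The share of all genes whose classes are apart in this way was not determined, so this is not shown to be particular to them. Counted per cell rather than in CPM, the steps of *Prm1* and *Tnp1* were smaller, since the cells also lost UMIs. The first step of *Prm3* went the other way, from 60.9 and 53.2 UMIs per transition spermatid to 56.8 and 48.9 per lower-protamine cell. A higher-protamine cell held 62.4 and 64.6 *Prm3* UMIs. A transition spermatid held on average 781.9 and 677.9 *Prm1* UMIs, a lower-protamine cell 1003 and 765.5, and a higher-protamine cell 1226 and 1233. For *Tnp1* the means were 266.2 and 258.3, then 316.6 and 270.3, then 368.7 and 382.4 UMIs per cell.

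*Prm1*, *Prm2*, *Prm3* and *Tnp2* lie side by side on the minus strand of chromosome 16, and their genes span 10787936 to 10805839 in GRCm38 as GENCODE annotates them, and *Tnp1* lies on chromosome 1 (73015074 to 73015909). To show what these promoters share, the 120 bases before the RefSeq start site, which for all 5 genes shown lies inside the GENCODE gene and for *Prm1* and *Prm2* by several kilobases, are printed below in 5′ to 3′ direction (RefSeq, GRCm38.p6), for the protamines and transition proteins and for *Hmgb4*, an HMG-box gene among the most abundant. Capitals mark TGANGTCA (similar to the cyclic AMP response element, the site of CREM, a regulator of spermatid genes) and TATANA, both searched on both strands, where the second motif may overlap itself.
Prm1, chr16:10796824-10796943, minus strand: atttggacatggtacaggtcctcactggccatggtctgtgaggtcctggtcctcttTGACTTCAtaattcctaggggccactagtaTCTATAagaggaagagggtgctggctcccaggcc
Prm2, chr16:10792106-10792225, minus strand: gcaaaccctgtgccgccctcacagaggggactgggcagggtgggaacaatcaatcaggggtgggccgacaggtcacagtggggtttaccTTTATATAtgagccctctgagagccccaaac
Tnp2, chr16:10788656-10788775, minus strand: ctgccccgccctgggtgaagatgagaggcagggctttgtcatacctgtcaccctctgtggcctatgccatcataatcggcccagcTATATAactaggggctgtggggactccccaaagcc
Tnp1, chr1:73015900-73016019, minus strand: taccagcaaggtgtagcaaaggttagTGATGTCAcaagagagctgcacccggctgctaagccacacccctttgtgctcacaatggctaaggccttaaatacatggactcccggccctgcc
Hmgb4, chr4:128260896-128261015, minus strand: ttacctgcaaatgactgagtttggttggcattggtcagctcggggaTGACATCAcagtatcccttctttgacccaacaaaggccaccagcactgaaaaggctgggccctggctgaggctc
The CRE-like letters began 64 bases before the start of *Prm1*, 94 before *Tnp1* and 74 before *Hmgb4*, and the TATA-like letters 34 bases before *Prm1*, 31 before *Prm2* and 35 before *Tnp2*. Among the 15 genes with the most UMIs in the class, 14 had a promoter entry, and within 250 bases before any of their starts 5 of these held TGANGTCA and 6 held TATANA. Counted in the same way, 8.55% and 25.7% of all 27025 genes with a promoter entry did, and 7.49% and 22.6% of all 32851 promoters. A match is a description of letters and not of binding.

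The 15 genes with the most UMIs took 20.0% and 19.5% of the total. Besides *Prm1*, *Prm2*, *Tnp2* and *Tnp1* they included *Smcp*, a cysteine-rich protein of the mitochondrial sheath, with 5625 and 8793 CPM, and *Hmgb4* with 7099 and 6203 CPM. *Meig1*, needed for the manchette, had 8406 and 6880 CPM and *Ldhc*, the testis lactate dehydrogenase, 6723 and 6234 CPM. *Fabp9* and *Dbil5*, both lipid-binding, reached 4886 and 5420 CPM and 4117 and 5905 CPM. *Spa17*, a sperm surface and fibrous sheath protein, was at 3964 and 4290 CPM. The remaining members of the 15 were *1700027A15Rik*, *Gsg1*, *Gstm5* and *Gm5617*, with means of both mice from 4186 to 4919 CPM. As 1 UMI stands for 1 captured 3' end, these values were not divided by transcript length.

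**Figure D2:**
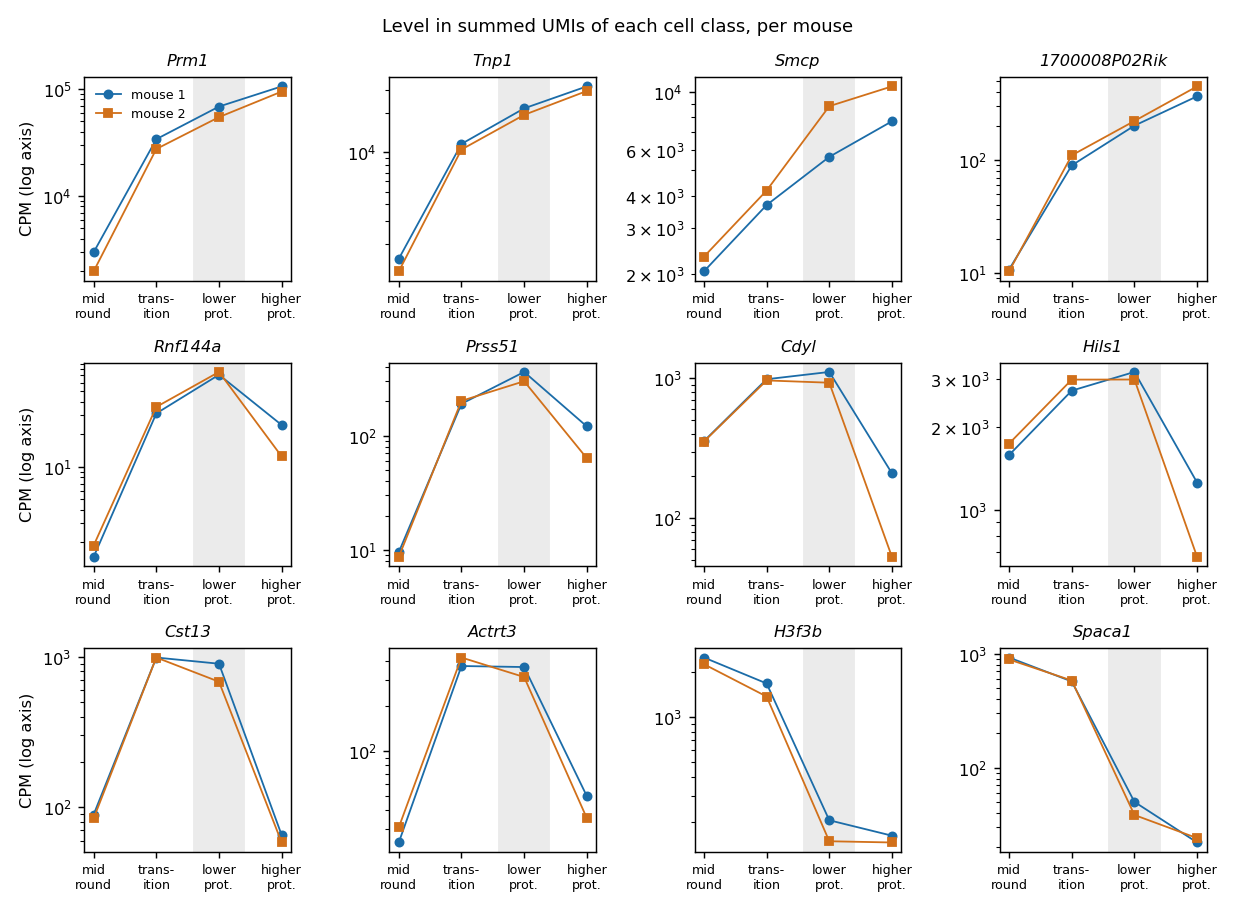
Level of 12 genes in summed UMIs of mid round spermatids, transition spermatids, lower-protamine condensing spermatids (shaded) and higher-protamine condensing spermatids, in CPM on log axes that differ between panels, with 1 line per mouse. *Prm1*, *Tnp1* and *Smcp* were highest in higher-protamine cells, *Rnf144a* and *Prss51* in lower-protamine cells, *Cst13* and *Actrt3* were lower in higher-protamine cells than in both classes before, and *H3f3b* and *Spaca1* were lower in lower-protamine cells than in transition spermatids.

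To see which transcripts differed within the condensing stage, the lower-protamine cells were compared with the higher-protamine cells. As the classes were divided by protamine, ratios between classes rest on CPM computed without *Prm1* and *Prm2* in the total (protamine-free CPM), with a pseudocount of 10, and a gene was counted where both mice passed 2-fold in the same direction. Of 3565 genes with at least 50 UMIs in each mouse in both classes together, 301 (8.44%) were 2-fold higher in the lower-protamine cells and 0 were 2-fold lower (0%). Without the 5 cells that went against the label, 290 were higher, 283 of them among the 301, and 0 lower. Of the 301 genes, 219 (72.8%) had under 50 UMIs in the higher-protamine cells of at least 1 mouse and were compared through the lower-protamine cells. Where 50 UMIs were required in each class, 82 genes were higher and 0 lower, and where the mean of both classes had to reach 20 protamine-free CPM, which weighs them alike, 280 were higher and 0 lower. The median log2 ratio of all genes was 0.19 and 0.18, but its mean over the mice was -0.09 with 50 UMIs in each class. Totals scaled by the TMM method of edgeR, which assumes that most genes do not differ, shifted the mean of these medians from 0.19 to -0.10 and left 151 genes higher and 15 lower. With mean UMIs per cell the median was 0.38, with 393 genes higher and 0 lower.

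*Cst13*, a testis cystatin on chromosome 2 (148820081 to 148830410), had 897 and 681 CPM in the lower-protamine cells and 65.2 and 58.2 CPM in the higher-protamine cells, a log2 ratio of 3.54 and 3.29. It was found in 86.4% and 77.1% of the lower-protamine cells and in 51.7% and 54.1% of the higher-protamine cells, where the mean was 0.753 and 0.757 UMIs per cell. *Actrt3*, an actin-related protein of the perinuclear theca, had 366.8 and 314.2 CPM against 49.7 and 35.4 CPM. In transition spermatids *Cst13* had 986.1 and 986.4 CPM and *Actrt3* 372.6 and 425.1 CPM, less than 2-fold from the lower-protamine cells. Per cell, *Cst13* had 22.7 and 24.3 UMIs in transition spermatids and 13.1 and 9.53 in the lower-protamine cells. The other genes at the top of this comparison had lower levels. *Fam71b* had 127.6 and 179.2 CPM against 8.46 and 13.5 CPM, *Faiml* 143.5 and 123.6 CPM against 7.96 and 9.36 CPM, and *Cntn1*, a cell adhesion molecule, 160.1 and 113.2 CPM against 14.4 and 1.04 CPM. Per higher-protamine cell, *Fam71b* had 0.098 and 0.176 UMIs, *Faiml* 0.092 and 0.122 and *Cntn1* 0.167 and 0.014. With under 50 UMIs there in each mouse, they were compared through the lower-protamine cells, and their ratios are uncertain. *1700095A21Rik*, *Tmigd3*, *Ccdc185*, *Ccer1* and *Trim80* had log2 ratios from 2.57 to 3.76 over both mice. Of these, *Ccdc185* and *Trim80* were also under 50 UMIs in the higher-protamine cells of mouse 2, with 0.297 and 0.487 per cell.

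*Malat1*, a nuclear long non-coding RNA, had the largest ratio, with 1750 and 1909 CPM against 27.9 and 23.9 CPM. However, 94.2% and 97.4% of its UMIs in the class came from 5 cells of each mouse. Without the 5 cells that went against the label, 212.1 and 68.1 CPM remained, while *Cst13* was then at 908.2 and 691.8 CPM.

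No gene was 2-fold lower than in the higher-protamine cells in both mice. The nearest was *1700008P02Rik*, with 202.7 and 222.9 CPM against 368.6 and 451.3 CPM, a log2 ratio of -0.91 and -1.07. *Paqr5*, a membrane progestin receptor, had 942.9 and 1045 CPM against 1420 and 1773 CPM. *Dph3*, a diphthamide synthesis protein, had 158.1 and 172.7 CPM against 244.8 and 306.7 CPM. *Svip*, *Gm13976*, *Slfn5os*, *Gm14773*, *Iqcf5*, *Med25* and *Cyp2a12* had log2 ratios from -0.90 to -0.66 over both mice. Of the abundant tail and midpiece genes, *Smcp* had a log2 ratio of -0.53 and -0.33 and *Odf2*, an outer dense fibre protein, -0.49 and -0.42, whereas *Spa17* had 0.01 and 0.13.

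**Figure D3:**
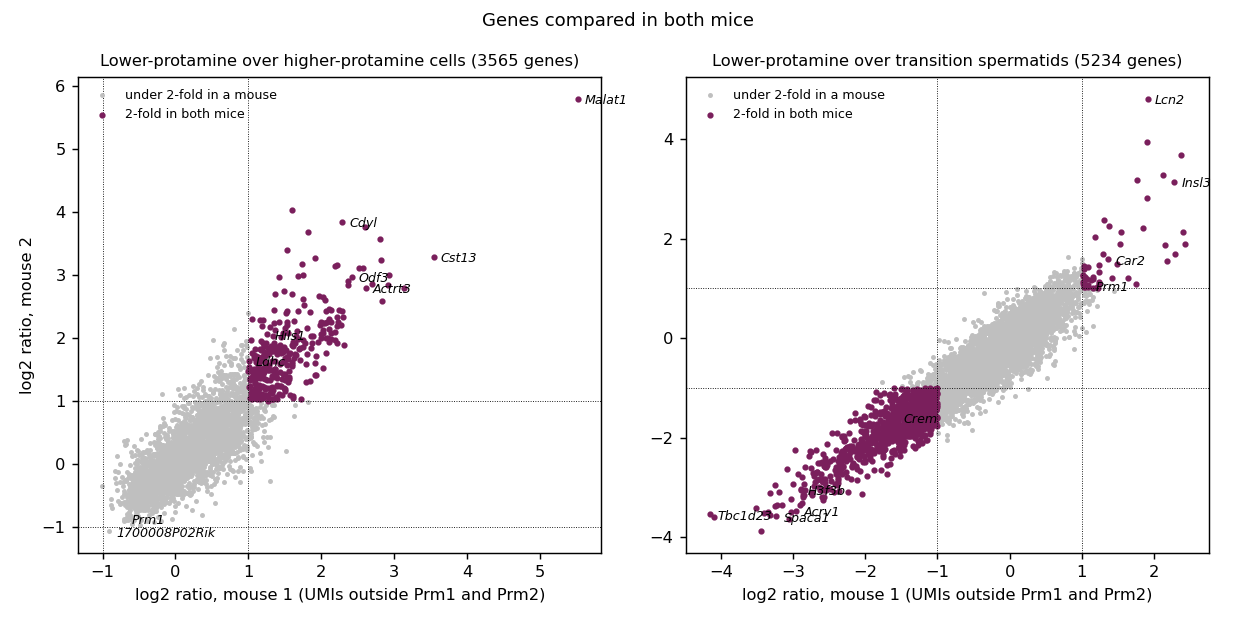
Log2 ratio of each gene in mouse 1 (horizontal) and mouse 2 (vertical), from protamine-free CPM, for lower-protamine cells over higher-protamine cells (left, 3565 genes) and over transition spermatids (right, 5234 genes). Purple points passed 2-fold in both mice, 301 on the left, all of them higher, and 48 higher and 869 lower on the right.

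Grouped by role, the genes with the stronger presence in the lower-protamine cells came from several structures. The lists stand beside the background of 8.44% of all genes. Their counts hold genes with under 50 UMIs in the higher-protamine cells of mouse 2, which were compared through the lower-protamine cells. The distance of the list shares from the background is therefore uncertain. Chromatin genes included 1 of 6 histone variants and 1 of 5 remodelling factors. *Hils1*, the spermatid linker histone on chromosome 11 (94967593 to 94968456), had 3178 and 2982 CPM against 1254 and 671.7 CPM, and *Cdyl*, a chromodomain protein of histone removal, 1110 and 929.6 CPM against 209.4 and 53.0 CPM. The other abundant histone variant, *H1fnt*, had 2138 and 2349 CPM against 2424 and 2780 CPM. With TMM-scaled totals *Hils1* was no longer 2-fold higher in mouse 1, with a log2 ratio of 0.83 and 1.79, while *Cdyl* was still at 1.86 and 3.60.

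Of 14 acrosome genes compared, 5 were 2-fold higher, and the list had a median log2 ratio of 0.93 and 0.77, beside 0.19 and 0.18 over all genes. *Spaca7* had 388.7 and 306.7 CPM against 123.9 and 47.8 CPM, *Dkkl1*, an acrosomal glycoprotein, 971.4 and 865.1 CPM against 436.3 and 317.1 CPM, and *Hyal5*, a sperm hyaluronidase, 56.5 and 37.2 CPM against 12.9 and 8.32 CPM. *Acrbp* and *Spata16* had log2 ratios of 1.12 and 1.03 and of 1.01 and 1.22, and *Spata16* was under 2-fold without the 5 cells. All of these except *Dkkl1* had under 50 UMIs in the 74 higher-protamine cells of mouse 2 and were compared through the lower-protamine cells. *Acrbp*, *Spaca7*, *Hyal5* and *Spata16* had 0.635, 0.622, 0.108 and 0.338 UMIs per cell there. Only *Spaca7* and *Hyal5* passed with TMM-scaled totals. Of 14 genes of the sperm surface, *Calr3*, a testis calreticulin, had 318.3 and 300.3 CPM against 88.1 and 65.5 CPM. *Adam6a* and *Adam6b* were also counted, but they are near-identical copies that may share reads, and their separate values are uncertain.

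In the tail, 3 of 13 outer dense fibre and fibrous sheath genes (23.1%) and 2 of 15 axoneme genes (13.3%) were 2-fold higher, beside 8.44% of all genes, with list medians of -0.31 and -0.23 and of 0.40 and 0.46. *Odf3* had 404 and 346.4 CPM against 64.7 and 34.3 CPM, and *Ropn1l*, a ropporin-like protein of the sheath, 1763 and 1386 CPM against 445.2 and 313 CPM. *Tekt5* and *Rsph9* had 133.6 and 116.6 CPM against 52.7 and 29.1 CPM and 81.7 and 61.5 CPM against 25.9 and 21.8 CPM, and neither passed with TMM-scaled totals. *Odf3*, *Tekt5* and *Rsph9* had 0.446, 0.378 and 0.284 UMIs per higher-protamine cell of mouse 2. With under 50 UMIs in total there, they were compared through the lower-protamine cells. In the perinuclear theca, 3 of 15 passed, with *Ccin*, calicin, at 265.8 and 225.8 CPM against 47.3 and 35.4 CPM beside *Actrt3* and *Cylc1*, the last of which did not pass with TMM-scaled totals. *Ccin* and *Actrt3* each had 0.46 UMIs per higher-protamine cell of mouse 2 and were likewise compared through the lower-protamine cells. None of 12 manchette genes, 5 antizyme and polyamine genes or 5 respiratory chain isoforms passed, which at 8.44% of all genes is near the background.

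Of 11 metabolic enzymes, 8 could be compared, and *Ldhc* passed with 6723 and 6234 CPM against 3176 and 1888 CPM, but in mouse 1 its log2 ratio was only 0.58 with TMM-scaled totals. *Gapdhs*, the sperm glyceraldehyde phosphate dehydrogenase, was on the other side with 1748 and 2973 CPM against 2392 and 3379 CPM. Of 6 kinase genes, *Tssk1* passed with 1042 and 964.9 CPM against 302.5 and 107.1 CPM, while *Tssk6* had 1370 and 2083 CPM against 1789 and 2182 CPM. Among 9 genes of RNA storage, *Ybx1* and *Ybx3*, cold-shock proteins of stored messenger RNA, had log2 ratios of 2.22 and 3.16 and of 1.39 and 1.87, whereas their relative *Ybx2* had -0.36 and -0.55. Of 8 transcription regulators, *Gtf2a1l*, a germ cell general factor, had 172.1 and 163.3 CPM against 38.3 and 34.3 CPM, and *Fhl5*, a coactivator of CREM, 1151 and 1081 CPM against 490.5 and 422.1 CPM. *Ube2b* and *Rnf4* passed among 15 ubiquitin and proteasome genes, *Vdac3* among 10 of the mitochondrial sheath and *Catsper4* among 5 of ion transport. With TMM-scaled totals *Ube2b*, *Rnf4*, *Vdac3* and *Fhl5* no longer passed. *Gtf2a1l*, *Ybx3*, *Vdac3* and *Catsper4* had 0.446, 0.284, 0.649 and 0.108 UMIs per higher-protamine cell of mouse 2. With under 50 UMIs in total there, they were compared through the lower-protamine cells. Of 71 ribosomal protein genes 7 passed, a share near the background of 8.44%, while the list median was -0.23 and -0.24, and since many have processed copies their single values are uncertain.

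The lower-protamine cells were then compared with transition spermatids. Of 5234 genes with at least 50 UMIs in each mouse in both classes together, 869 (16.6%) were 2-fold lower in both mice and 48 (0.917%) 2-fold higher, with medians of -0.21 and -0.37 over all genes. Of the 869 genes, 574 (66.1%) had under 50 UMIs in the lower-protamine cells of at least 1 mouse and were compared through transition spermatids, which also had more UMIs in total. With 50 UMIs required in each class, 295 were lower and 31 higher, and with a mean of both classes of at least 20 protamine-free CPM, 732 were lower and 48 higher. Without the 5 cells, 899 were lower, 863 of them the same genes, and 41 higher, of which 34 were the same. Per cell, where the mean total was 14611 and 13991 UMIs against 22986 and 24619, 1808 genes were lower and 11 higher.

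*Tbc1d23*, a Golgi trafficking protein, was at 271.6 and 265.8 CPM in transition spermatids and at 5.98 and 13.4 CPM in the lower-protamine cells. *Spaca1*, a membrane protein of the acrosome on chromosome 4 (34024874 to 34050191), had 572.2 and 583.1 CPM and then 49.8 and 38.2 CPM, which is a drop from 13.2 and 14.4 to 0.728 and 0.535 UMIs per cell. *Hsfy2*, a heat shock factor-like gene, had 341.4 and 377.1 CPM and then 25.9 and 26.3 CPM. *Fam209*, *Tmem144*, *Fyb*, *Hacd2*, *Sgms2*, *Spata9* and *Ankrd7* had log2 ratios from -3.88 to -3.15 over both mice. For each gene given with its values, both mice had lower levels than either mouse in transition spermatids. These genes were named for their low ratios, so this gap was largely set by how they were picked. The share of all compared genes that are apart in this way was not determined, so nothing particular to these genes is shown by it.

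Of 12 round spermatid markers 9 were lower (75%), beside 16.6% of all genes. *Acrv1*, an acrosomal vesicle protein, had 31.9 and 23.8 CPM against 324.3 and 373.2 CPM. The median log2 ratio of this list was -2.25 and -2.46. Of 19 acrosome genes 10 were lower (52.6%), of 17 sperm surface genes 7 (41.2%, or 6 with TMM-scaled totals) and of 8 ion transport genes 4 (50%), with list medians of -1.16 and -2.05, -0.67 and -1.05, and -1.03 and -1.32. These counts hold genes with under 50 UMIs in the lower-protamine cells, which were compared through transition spermatids. Among them were *Catsper1* with 0.12 and 0.09 and *Dcst1* with 0.126 and 0.125 UMIs per lower-protamine cell. Counts per list with 50 UMIs required in each class are not given, so the distance of these shares from the background is uncertain. *Izumo1*, the sperm ligand of egg fusion, had 30.6 and 27.3 CPM against 212.2 and 230.9 CPM, and *Izumo2* had 647.9 and 604.5 CPM against 566.4 and 564.8 CPM. *Catsper3*, a calcium channel subunit, had 21.3 and 12.9 CPM against 156.9 and 165 CPM, and *Catsperd*, an auxiliary subunit, 118.9 and 107.7 CPM against 103.7 and 111 CPM. Per cell, *Izumo2* had 9.47 and 8.46 UMIs against 13.0 and 13.9, and *Catsperd* 1.74 and 1.51 against 2.38 and 2.73.

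Against the background of 16.6%, the axoneme list held 6 of 20 lower genes (30%), all of them tektins or *Spag* genes, of which *Spag16* did not pass with TMM-scaled totals. *Tekt2* had 63.8 and 64.5 CPM against 475 and 490.3 CPM and *Tekt4* 88.4 and 52.1 CPM against 368.2 and 392.8 CPM. Of 16 genes of the outer dense fibres and fibrous sheath 3 were lower (18.8%, or 2 with TMM-scaled totals, without *Fsip2*), among them *Cabyr*, a calcium-binding sheath protein, with 241.9 and 289.9 CPM against 750.1 and 820.4 CPM. Of 17 manchette and nuclear linker genes 3 were lower (17.6%), with *Clip1* at 57.8 and 50.6 CPM against 363.4 and 364.9 CPM and *Sun5*, which joins head and tail, at 41.2 and 35.7 CPM against 219.7 and 216.2 CPM. Of 15 perinuclear theca genes, *Actl7b* and *Spata46* were lower (13.3%), and of 11 mitochondrial sheath genes *Gk2* and *Glipr1l1* (18.2%). Apart from the axoneme, these shares were near the background.

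Both genes for the replacement histone H3.3 were among the lower ones. *H3f3b* had 206 and 149.4 CPM against 1671 and 1368 CPM, and *H3f3a* 237.9 and 174.2 CPM against 748.4 and 806.3 CPM. *Brdt*, the bromodomain protein of histone eviction, was the only lower one of 7 remodelling genes (14.3%), with 25.3 and 20.4 CPM against 68.1 and 59.2 CPM, and it did not pass with TMM-scaled totals. *Crem*, the activator of spermatid genes, had 103.7 and 107.7 CPM against 342.8 and 363.3 CPM, and *Sox5* and *Rfx4* completed the 3 of 10 lower transcription regulators (30%). *Pabpc1*, the poly(A)-binding protein, had 237.2 and 117.1 CPM against 831.9 and 767 CPM, and 4 of 15 RNA storage genes were lower (26.7%), of which *Pabpc1* and *Paip2b* passed with TMM-scaled totals, beside 16.6% of all genes. In contrast, none of 11 testis glycolysis genes and none of the 15 elongating and condensing spermatid markers were lower, with list medians of 0.36 and 0.35 and of 0.62 and 0.84. As UMIs per cell these medians were on the other side, at -0.29 and -0.46 and at -0.10 and -0.04.

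**Figure D4:**
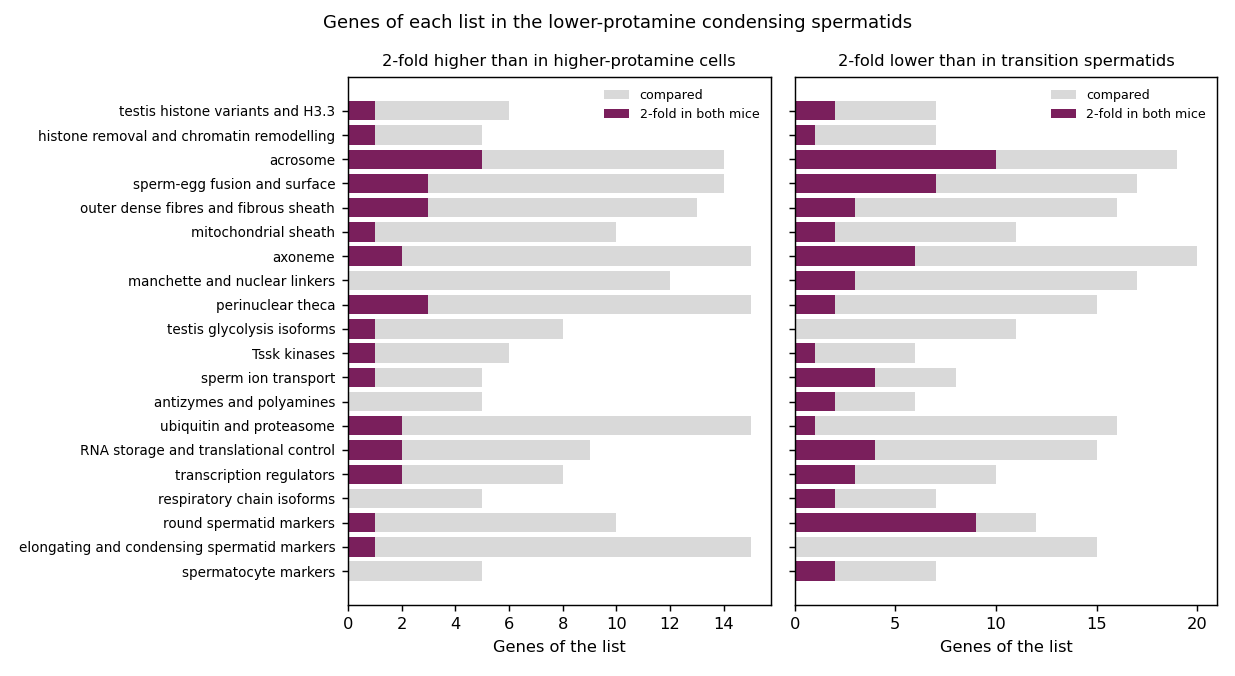
Number of genes of each list that were compared (grey) and that passed 2-fold in both mice (purple), for genes higher in lower-protamine than in higher-protamine condensing spermatids (left) and genes lower than in transition spermatids (right). Round spermatid markers (9 of 12) and acrosome genes (10 of 19) stand out on the right, whereas no list drawn on the left exceeds 5 genes (the ribosomal protein genes are not drawn).

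Few genes were 2-fold higher than in transition spermatids, and the highest ranks depended on the 5 cells. *Gstm1*, *Insl3*, *Ptgds*, *Lcn2*, *Fabp3*, *Cyp17a1* and *Agt*, several of them Leydig cell genes, led the comparison. *Insl3* had 106.3 and 143.9 CPM and, without the 5 cells, 27.6 and 6.55 CPM, against 15.4 and 8.64 CPM in transition spermatids. Without these cells *mt-Cytb* led, with 137.3 and 144.7 CPM against 37.8 and 43.8 CPM, and *mt-Nd1*, *mt-Nd4* and *mt-Co1* were also among the first 10. Of the mitochondrial UMIs left, 59.3% in mouse 1 lay in 4 of 101 cells and 54.4% in mouse 2 in 2 of 141 cells, each with more than 0.4% mitochondrial UMIs, a limit set after the values were seen. The median share per cell was 0.0187% and 0.0201%, against 0.0114% and 0.0138% in transition spermatids, and the part of these few cells in the difference was not tested. Also without them, *Car2*, a carbonic anhydrase, had 785 and 1020 CPM against 310.7 and 345.1 CPM, and *Cby3* 249.8 and 251.6 CPM against 86.6 and 87.0 CPM. *Apoe*, the lipoprotein, had 64.6 and 104.4 CPM against 20.2 and 31.3 CPM, and *Tmod4*, *Zfp706* and *Cd3d* completed the 10. *Prm1*, of the choice itself, and *1700027A15Rik* also passed, and *Tnp1* was just below with 0.97 and 0.95.

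Of the 299 genes that were 2-fold higher than in higher-protamine cells and compared in both ways, 222 had their highest level in transition spermatids and their lowest in higher-protamine cells in both mice. Since they were chosen for the second step, only the first is free, and 74.2% of them were lower than in transition spermatids in both mice, compared with 46% of the 3549 genes compared in both ways. Of these 299, 62 were in addition 2-fold lower than in transition spermatids and 12 were 2-fold higher. Without the 5 cells, 291 genes were higher than in higher-protamine cells and compared in both ways. Of these 291, 62 were 2-fold lower than in transition spermatids and 0 were 2-fold higher. This base is larger than the number of all higher genes without the 5 cells given above, so both counts do not rest on the same set of genes compared. The 12 found with all cells were *Cst3*, 3 mitochondrial genes and 8 others that include *Insl3*, *Cyp17a1* and *Fabp3*. Of the 48 genes 2-fold higher than in transition spermatids, 22 were higher still in higher-protamine cells in both mice. Both comparisons share the lower-protamine cells, so these counts are not independent.

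Among 2764 genes with at least 50 UMIs in the lower-protamine cells of each mouse, 173 had their highest level in these cells in both mice, and 185 without the 5 cells. Genes thus entered through the class in which they were then ranked, and some had few UMIs elsewhere. *Rnf144a*, named below, had 49 and 12 UMIs in all higher-protamine cells. By the 2-fold rule, 7 were 2-fold above each of the 6 other classes in both mice, and 0 without the 5 cells. The 7 held *Insl3*, *Agt*, *Lcn2*, *Cyp17a1*, *Akr1cl*, *Fabp3* and *Gstm1*. Without the 5 cells *Rnf144a*, a ubiquitin ligase gene on chromosome 12 (26300964 to 26415254), ranked first. It had 31.2 and 35.8 CPM in transition spermatids, 71.1 and 75.4 CPM in the lower-protamine cells and 24.4 and 12.5 CPM in the higher-protamine cells, and 1.47 and 1.87 CPM in mid round spermatids. *Nat9* had 153.4 and 152.9 CPM, then 288.4 and 267.5 CPM, then 111.4 and 70.7 CPM. *Prss51*, a testis serine protease, had 189.8 and 201.5 CPM, then 360.8 and 299.3 CPM, then 120.4 and 63.4 CPM, and its relative *Prss58* 360.3 and 400.4, then 710.3 and 630.9, then 509.4 and 363.9 CPM. *Cypt1*, a cysteine-rich perinuclear theca gene, reached 1300 and 1219 CPM between 799.4 and 830.9 CPM and 773.1 and 299.5 CPM. *Kansl1*, *Gm13539*, *Ttc23*, *Mettl9* and *Wasf2* completed the first 10. With TMM-scaled totals *Rnf144a* was above higher-protamine cells by a log2 ratio of 0.85 and 1.73. Counted per cell, *Rnf144a* was above transition spermatids by a log2 ratio of 0.42 and 0.21, and *Prss51* by 0.26 in mouse 1 and -0.23 in mouse 2. In UMIs per cell the lower-protamine and transition spermatids had 4.21 and 3.74 UMIs against 3.53 and 3.76 for *Nat9*, 10.4 and 8.83 against 8.28 and 9.86 for *Prss58* and 19.0 and 17.1 against 18.4 and 20.5 for *Cypt1*.

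To follow the loss of transcripts within the class, the 495 condensing cells were divided into quartiles of protamine share, of which the first 2 are the lower-protamine cells. With quartiles taken over both mice, the animals moved apart. In the second quartile, *Cst13* had 925.7 protamine-free CPM in mouse 1 and 111.9 in mouse 2, *Actrt3* 362.1 and 55.9, *Cdyl* 1264 and 363.5 and *Hils1* 3714 and 1868. The first quartile held 32 cells of mouse 1 and 92 of mouse 2, and the second 71 and 52. With quartiles taken within each mouse, a division added after the data had been seen, the animals were closer for these 4 genes, which were chosen after their values were seen. Other genes still differed, as *Ybx1* with 273.4 in mouse 1 and 1234 in mouse 2 and *Smcp* with 7193 and 11599 in the second quartile. The lower-protamine cells then filled the quartiles with 70, 33, 0 and 0 cells in mouse 1 and 55, 54, 35 and 0 in mouse 2. *Cst13* then had 1170, 343.7, 73.4 and 55.9 in mouse 1 and 1287, 374.5, 83.0 and 71.4 in mouse 2. *Cdyl* had 1275, 889.3, 179.9 and 63.9 in mouse 1 and 1391, 912.8, 219.5 and 43.2 in mouse 2. *Hils1* had 3572, 3024, 1546 and 619.9 in mouse 1 and 4080, 2982, 1611 and 551 in mouse 2. *Tssk1* had 1165, 1006, 285.1 and 103.8 in mouse 1 and 1298, 1042, 376.8 and 91.3 in mouse 2. In this division *Cst13* and *Actrt3* were more than 2-fold lower in the second quartile than in the first in both mice, whereas *Cdyl*, *Tssk1* and *Odf3* were not and first fell by that much from the second to the third. With quartiles over both mice this order was not seen. There *Cst13* and *Cdyl* had 1117 and 1145 in the first quartile of mouse 1 and first fell more than 2-fold after the second, to 92.5 and 424.9, while in mouse 2 they had 1005 and 1285 in the first and both fell more than 2-fold to the second. The limits of the quartiles within each mouse lay at 10.3% and 12.1% protamine in mouse 1 and at 8.39% and 9.70% in mouse 2.

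**Figure D5:**
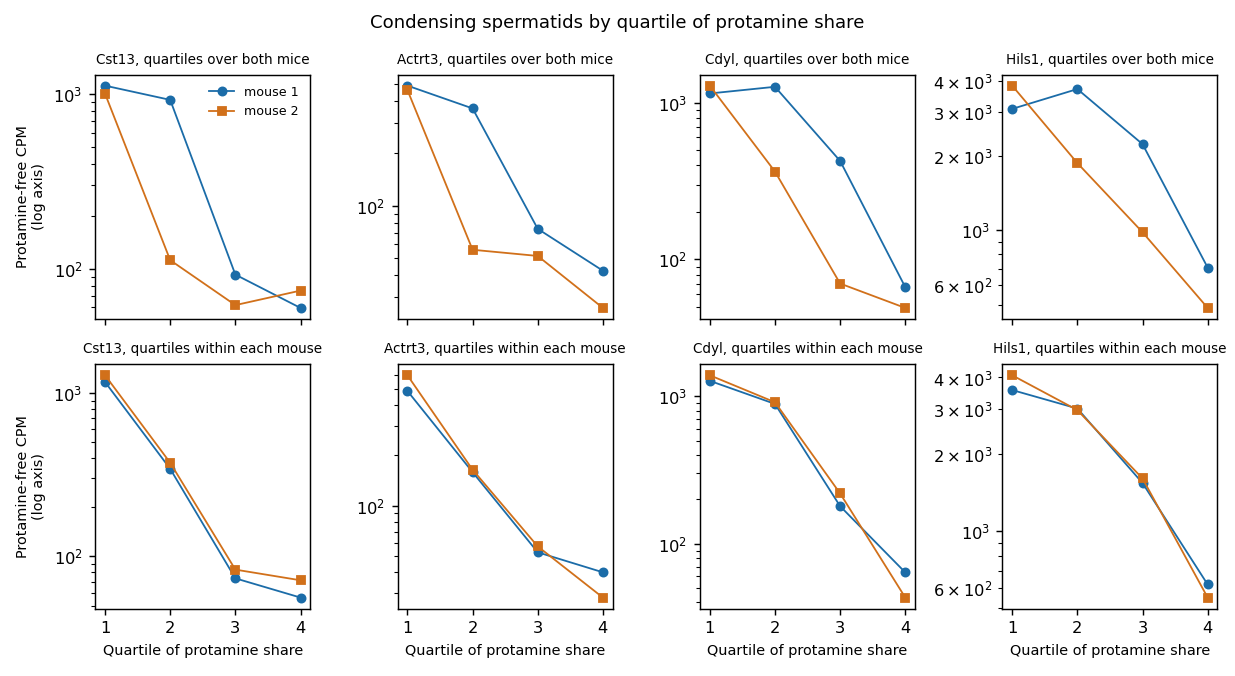
*Cst13*, *Actrt3*, *Cdyl* and *Hils1* in condensing spermatids by quartile of protamine share, in protamine-free CPM on log axes, with quartiles over both mice (top) and within each mouse (bottom). The lines of the mice are apart in the second and the third quartile at the top, where *Cst13* is at 925.7 and 111.9 in the second. In these quartiles they are closer together at the bottom, where *Cst13* is at 343.7 and 374.5 in the second.

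Between the mice, 3010 genes with at least 100 UMIs in the class were compared, 1 animal against 1 animal, without a replicate. Of these, 27 (0.897%) were 2-fold higher in mouse 2 and 16 (0.532%) in mouse 1. *Hbb-bs* and *Hba-a1*, the globin genes, led in mouse 2 with 158.3 and 57.6 CPM, and 0.664 and 2.66 CPM in mouse 1, beside the single cell rich in haemoglobin, whose part in the difference was not tested. *Lcn2* and *9230104L09Rik* were higher in mouse 2 by a log2 ratio of 2.27 and 2.01, and by -0.38 and -0.07 without the 5 cells. *Tpgs2*, a tubulin polyglutamylase subunit, was at 7.31 CPM in mouse 1 and 46.2 CPM in mouse 2, and its log2 ratio of 1.74 was 1.35 in higher-protamine cells and 1.20 in transition spermatids. *Ybx1*, with 379.4 and 1239 CPM, was likewise higher in mouse 2. On the side of mouse 1 were *Hist2h2aa1*, *Gm45862*, *Ruvbl2*, *Cenpw* and *Cox7b2*, with log2 ratios from -1.39 to -1.15.

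Repeat sequences, counted in rows of their own, took 1.04% and 1.10% of the UMIs, most of it on a poly-A simple repeat with 8146 and 9146 CPM. Without simple repeats and satellites the share was 0.229% and 0.188%, against 0.485% and 0.466% in transition spermatids and 0.134% and 0.118% in higher-protamine cells. Without the 5 cells it was 0.198% and 0.152%, still between both classes. The SINE row *B1_Mus1* depended on them, with 141.5 and 119.6 CPM in all lower-protamine cells and 26.3 and 11.1 CPM without them, against 154.7 and 164.4 CPM in transition spermatids and 2.49 and 8.32 CPM in higher-protamine cells. Its UMIs in higher-protamine cells numbered 5 and 8.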

How the data were processed

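Testes of 2 mice were measured with 1 droplet library per mouse. The authors processed the reads with Cell Ranger 2.0.0, against repeat-masked GRCm38 with added repeat sequences, equalised the read depth per cell between the libraries by downsampling, and deposited 1 matrix of whole UMI counts per row and cell (51868 rows, 2552 cells), which was used as deposited. Barcodes carry a library suffix, 1 or 2, read here as mouse 1 or mouse 2. No barcode was shared. The deposited counts were scaled to CPM per cell, and UMIs were summed per class and mouse. Ratios use protamine-free CPM, a pseudocount of 10 and at least 50 UMIs per mouse in both classes together, and 2-fold in both mice.

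No p-values were computed, since cells are not replicates and the classes were chosen on these values. The members and the 27 gene lists were chosen with earlier results of these data known. Genes are named as the rule genes, the 15 highest in CPM, the 10 largest and smallest ratios, up to 6 per list, 5 per direction between mice and the 10 most above all other classes; *Ybx1* between mice, the B1 row and the genes by quartile were chosen after their values were seen. Thinning drew 5000 UMIs with 42 as seed. scrublet (scanpy 1.11.5) called 22 doublets, 5 of them members, which were kept. The script for the fold calls was tested on simulated data with known changes, where it recovered fewer lowered than raised genes. Gene positions are from GENCODE for GRCm38, promoters from RefSeq (GRCm38.p6). Tools were Python 3.11.15, numpy 2.4.6, pandas 2.3.3, scipy 1.17.1, matplotlib 3.10.9, R 4.3.3 and edgeR 4.0.16.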

Additional observations from a re-analysis of the deposited data

How the results depend on the processing

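Most counts of genes moved with the settings, and TMM-scaled totals turned the median of all genes against higher-protamine cells from 0.19 to -0.10. The number of genes 2-fold higher than in higher-protamine cells (301) was 151 with TMM-scaled totals, 82 with at least 50 UMIs in each class, 182 with at least 200 UMIs and 721 at 1.5-fold, and from 410 to 531 with 1 mouse left out, where only the remaining mouse had to pass. The number of lower genes (0) was 15 with TMM-scaled totals, 32 at 1.5-fold, 1 where cells were chosen on a random part of the UMIs and measured on the rest, and 1 without either mouse. Against transition spermatids, the number of higher genes (48) was 86 with TMM-scaled totals, 31 with 50 UMIs in each class, 29 with at least 200 UMIs, 240 at 1.5-fold, 11 as mean UMIs per cell and from 69 to 163 with 1 mouse left out. The number of lower genes (869) was 295 with 50 UMIs in each class, 472 with at least 200 UMIs, 1573 at 1.5-fold, 1808 per cell and from 936 to 1356 with 1 mouse left out. The cause of these moves was not tested. The rule applied to 1 mouse alone found from 112 to 134 cells. Cutting at the median of each mouse gave 138 and 109 cells, of which 212 were the same, and 326 genes higher and 0 lower. Averaged over the 2 mice, the mean UMIs per cell were 14301 in place of a median of 12785, the genes per thinned cell were 1594, and mitochondrial transcripts were 0.110% as a mean and 0.0187% as a median without doublets. Of 168 list medians recomputed with all UMIs as total, with 1 mouse left out or without the 5 cells of low protamine share, 7 changed sign, and that of the Leydig cell markers against higher-protamine cells went from 2.38 to -0.083 without the 5 cells. Against higher-protamine cells, TMM-scaled totals turned 3 of 21 list medians in both mice (histone variants, manchette, respiratory isoforms). Against transition spermatids, they turned 1 of 16 with the same sign in both mice (mitochondrial sheath), and UMIs per cell turned 5 (histone variants, outer dense fibres, glycolysis, Tssk kinases, elongating and condensing markers). These scalings of the lists, the minimum in each class or over their mean, values without these 5 cells, per cell and within each mouse's quartiles were chosen after seeing the data. No paired analysis was possible because the results come from no test; each ratio was taken within 1 mouse. Genes under 50 UMIs per mouse in both classes together were not compared, so differences among them were not detectable at this depth.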
